A study of Mus musculus with 2 samples.

Results

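Ebf1 and Pax5 encode the transcription factors that specify and maintain the B cell lineage, and spleen B cells keep both genes switched on. Non-coding transcripts were examined at these loci and beside Fcer2a and Pou2af1, which are also genes of mature B cells. The members were the assembled transcripts lying inside introns of Ebf1 (9) and Pax5 (5), and the annotated and assembled transcripts of 4 long non-coding RNA (lncRNA) genes. Those genes were 4930597A21Rik near Ebf1, 4930517J16Rik inside Pax5, Gm16553 near Fcer2a and 2010007H06Rik near Pou2af1. In all 23 transcripts were members (18 assembled, 5 annotated) of 32012 in the deposited tables. Assembled transcripts, named MSTRG, were built from the reads by the authors and match no annotated transcript.

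The data came from 2 spleen RNA libraries. One came from arthritic mice, with collagen-induced arthritis (CIA), a form of joint inflammation raised by immunizing mice against type II collagen, and the other from untreated healthy mice. Both sample titles say day 40, but the treatment label of the CIA mice says that they were killed at day 42 after the first immunization. Strain, sex, age and the number of mice behind each library do not appear in the labels. The libraries were of total RNA depleted of ribosomal RNA, which can hold unspliced as well as spliced RNA. Each group has 1 library, so no value below has a replicate check, no test was possible, and each ratio compares 2 libraries. Values are FPKM (fragments per kilobase of transcript, scaled to the fragments of the library), and the number of reads behind them is unknown. The authors list 0.0001 FPKM where nothing was measured, called the floor here. The log2 ratio is that of CIA to healthy after adding 0.1 FPKM to each, and a 2-fold ratio was used as a rule of size. Coordinates are of the mouse build GRCm38. In whole spleen RNA, more B cells and more RNA per B cell cannot be told apart.

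In B cell development EBF1 and PAX5 act in sequence. EBF1 opens and activates B lineage genes, Pax5 among them, and PAX5 then holds the cell in that fate and represses genes of other lineages. Pou2af1 encodes a coactivator that works with octamer-binding factors in B cells and is needed for germinal centres, and Fcer2a encodes CD23, the low-affinity IgE receptor of follicular B cells. Introns of active genes are transcribed with the gene and removed by splicing. RNA that maps to an intron can therefore be unspliced RNA of the host or a separate transcript, and without strand information these cannot be told apart.

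The annotated members differ in how they end and in what they overlap, as their GENCODE M21 sequences show. The last 80 bases are given because they mark where each annotated RNA stops, with the poly(A) signal AATAAA in capitals.
4930517J16Rik (ENSMUST00000193095): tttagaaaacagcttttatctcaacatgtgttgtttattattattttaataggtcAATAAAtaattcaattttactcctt
4930597A21Rik (ENSMUST00000128652): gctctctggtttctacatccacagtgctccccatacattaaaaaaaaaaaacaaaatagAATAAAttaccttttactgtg
2010007H06Rik, long form (ENSMUST00000186025): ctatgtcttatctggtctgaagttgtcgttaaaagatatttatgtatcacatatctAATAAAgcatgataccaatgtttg
2010007H06Rik, short form (ENSMUST00000050829): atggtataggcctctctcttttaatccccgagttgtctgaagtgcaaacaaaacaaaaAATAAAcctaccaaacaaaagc
Gm16553 (ENSMUST00000160490): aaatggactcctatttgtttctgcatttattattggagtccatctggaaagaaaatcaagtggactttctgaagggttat
The signal begins 25 bases before the end in 4930517J16Rik, 21 in 4930597A21Rik, and 24 and 22 in the long and short forms of 2010007H06Rik. The letters AATAAA do not occur in Gm16553.

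Within the Ebf1 gene (chromosome 11, 44617317 to 45008091, plus strand), all 9 intronic members lay in intron 6, which is 225.6 kb long. Together they covered 161.5 kb of it, 71.6% of its length. Assembled intronic transcripts had a median length of 782 bases over all 12603 in the series. Of the 34 longer than 25 kb, 5 were in Ebf1, and MSTRG.5426.1, with 82138 bases, ranked 2 by length. Multiplying FPKM by transcript length in kb gives a sum proportional to fragments. By this sum the Ebf1 introns ranked 1 of 4346 host genes in both libraries, at 3227 FPKM kb in CIA and 2333 FPKM kb in healthy spleen. That sum was taken over 235.0 kb of transcripts, at a mean of 13.7 FPKM in CIA and 9.93 FPKM in healthy spleen. The next host gene, Inpp4b, a phosphoinositide phosphatase gene, had 1570 and 1417 FPKM kb from 55 transcripts over 285.3 kb. The first rank holds for this length-weighted sum, which counts bases shared by overlapping forms more than once. By the plain FPKM sum Ebf1 ranked 10 in CIA and 14 in healthy spleen.

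Summed, the stretch nearest the start of Ebf1 differed least between the libraries, while its single members differed in direction. The plus-strand MSTRG.5424.1 stood at 15.2 FPKM in CIA and 15.9 FPKM in healthy spleen. The overlapping minus-strand MSTRG.5422.1 stood at 10.9 against 16.6 FPKM, with a log2 ratio of -0.60. MSTRG.5423.1, a 2-exon minus-strand form over the same bases, stood at 4.46 FPKM in CIA spleen, and was at the floor in healthy spleen. These 3 transcripts share bases, and how reads were divided among them is not given in the sources used here. Strands of all assembled transcripts are as listed by the authors. No strand was listed for 75.0% of all intronic assembled transcripts. As no strand setting is stated, whether reads came from the listed strand was not tested. Merged into 1 stretch of 40.5 kb (chr11:44671797-44712282, starting 54.5 kb from the Ebf1 start site), they summed to 30.5 against 32.4 FPKM, with a log2 ratio of -0.09. Here and below a stretch is a set of members that overlap one another, a grouping chosen after the values were seen.

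Further along the intron the CIA library was higher in every stretch. MSTRG.5425.1 stood at 25.5 FPKM in CIA and 12.6 FPKM in healthy spleen, while MSTRG.5425.2, inside its span, was at the floor in CIA but at 4.24 FPKM in healthy spleen. Their stretch (chr11:44712356-44739231) summed to 25.5 against 16.8 FPKM, with a log2 ratio of 0.60. The merging matters here, because the ratio of MSTRG.5425.1 alone was 1.01. MSTRG.5426.1 (chr11:44739353-44821490) stood at 16.3 against 8.60 FPKM, with a log2 ratio of 0.91. Next came MSTRG.5428.1, a short transcript of 333 bases, at 16.3 against 7.11 FPKM, with a log2 ratio of 1.18. MSTRG.5429.1 stood at 10.2 against 4.79 FPKM (1.08) and MSTRG.5430.1, the farthest, 226.3 kb from the start site, at 7.63 against 4.89 FPKM (0.63). No strand was given for the last 3 of these.

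The summed stretches fell in level along intron 6 in the direction of Ebf1 transcription in both libraries, by a larger factor in the healthy one. From the first stretch to the last, the level went from 30.5 to 7.63 FPKM in CIA spleen. In healthy spleen it went from 32.4 to 4.89 FPKM, 6.63 times lower. The third and the fourth CIA stretches were level at 16.3 FPKM, and in the healthy library the last 2 stretches, at 4.79 and 4.89 FPKM, were nearly level. The first sum adds 3 overlapping forms, 2 of them listed on the strand opposite to Ebf1. By the most abundant single member of each stretch, the CIA level was 15.2 FPKM in the first and 25.5 FPKM in the second, so the start of the CIA fall depends on the summing. By the same measure the healthy level still fell, from 16.6 to 12.6 and then 8.60 FPKM. The 3-exon assembled transcript MSTRG.5431.1, which shares exon bases with Ebf1 and is not a member, lies downstream of intron 6. It stood at 5.31 against 3.65 FPKM, with a log2 ratio of 0.53. Because of the shared exon bases, its level cannot be set directly against those of the intronic stretches. The 5 stretches with a higher CIA value were the 5 farthest from the start site. Why the ratio differs along the intron was not tested.

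**Figure D1:**
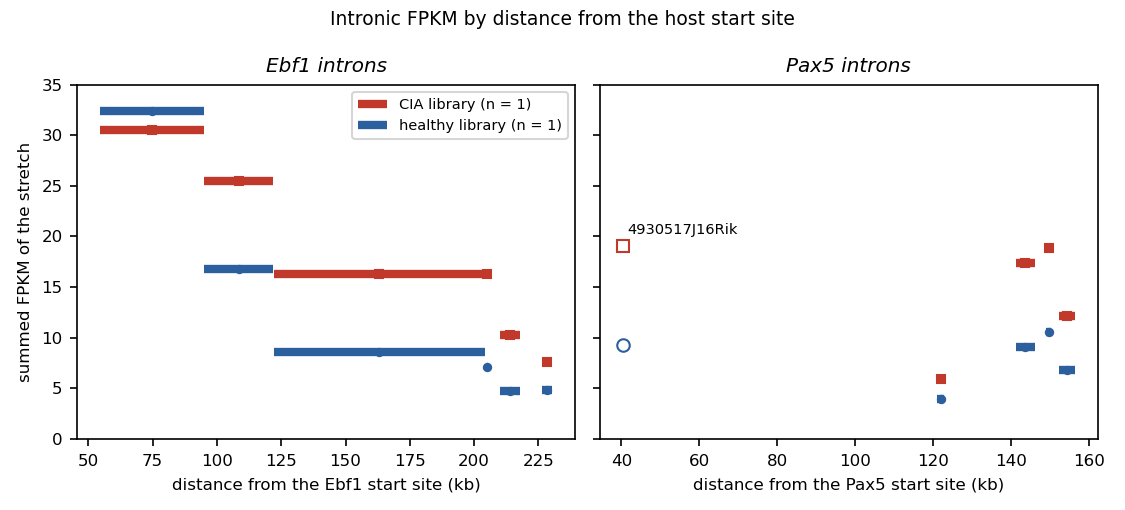
Summed FPKM (vertical axis) of each stretch of overlapping intronic members, against its distance in kb from the Ebf1 start site (left) or the Pax5 start site (right), in the CIA library (red) and the healthy library (blue), 1 library each. Horizontal bars span each stretch, small symbols mark its middle, and open symbols in the Pax5 panel are 4930517J16Rik. In Ebf1 the summed level goes from 30.5 to 7.63 FPKM in the CIA library and from 32.4 to 4.89 FPKM in the healthy one, and in Pax5 every red mark is above its blue mark.

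Pax5 (chromosome 4, 44524757 to 44710487, minus strand) had a smaller covered length, 11.6 kb in 4 stretches of introns 7 and 8, each higher in the CIA library. In intron 8, MSTRG.25960.1 stood at 18.9 FPKM in CIA and 10.6 FPKM in healthy spleen, a log2 ratio of 0.83. MSTRG.25959.1 stood at 12.2 against 6.77 FPKM, with the same log2 ratio to 2 decimals (0.83). MSTRG.25961.1 stood at 17.3 against 6.65 FPKM, with a log2 ratio of 1.37. Over nearly the same bases (chr4:44564507-44569179) MSTRG.25962.1, on the plus strand, was at the floor in CIA but at 2.45 FPKM in healthy spleen. Their sum, 17.3 against 9.10 FPKM, gave 0.92, close to the neighbouring stretches. In intron 7 MSTRG.25963.1, also listed on the plus strand, opposite to Pax5, stood at 5.95 against 3.99 FPKM, with a log2 ratio of 0.56. No fall in level with distance was seen here: the stretch nearest the Pax5 start site was the lowest in both libraries.

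The most abundant annotated member, 4930517J16Rik, is a single-exon transcript of 1568 bases at chr4:44669330-44670897. GENCODE types it as TEC, a class for transcripts still to be tested. It lies on the plus strand inside intron 5 of the minus-strand Pax5, 39.6 kb from the Pax5 start site, and shares no exon base with Pax5 or with Gm12462, whose span it also lies in. It stood at 19.04 FPKM in CIA and 9.29 FPKM in healthy spleen, a log2 ratio of 1.03. That is close to MSTRG.25960.1 in intron 8 of the same gene, in level and in ratio. Whether its reads came from the plus or the minus strand was not tested, as no strand setting is stated.

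Summed per locus, the Ebf1 introns stood at 106.4 FPKM in CIA and 74.6 FPKM in healthy spleen, a log2 ratio of 0.51. The Pax5 introns summed to 54.3 against 30.4 FPKM, with a log2 ratio of 0.83. Weighting by length gave 0.47 for Ebf1 and 0.87 for Pax5, close to the unweighted values. These values sit on a common shift, since the median log2 ratio was 0.25 over all intronic assembled transcripts and 0.30 over the annotated ones. After subtracting the shift of the annotated transcripts, Ebf1 stood at 0.22 and Pax5 at 0.54. Among 4339 host genes with at least 0.5 FPKM of intronic RNA in either library, 70.9% had a lower ratio than Ebf1 and 85.4% a lower ratio than Pax5.

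All 14 Ebf1 and Pax5 members reached 0.5 FPKM in at least 1 library. Of these, 5 were 2-fold higher in the CIA library, against a background of 15.6% of all assembled intronic transcripts, and 2 were 2-fold lower, against 10.3%. Both of the lower members and 1 of the higher were at the floor in 1 library, and each overlapped another member. Of the 11 above the floor in both libraries, 4 were 2-fold higher, none was 2-fold lower, and 9 had a log2 ratio above 0. Over all 12337 intronic transcripts above the floor in both, 15.1% were 2-fold higher, 9.55% were lower and 64% had a ratio above 0. The median log2 ratio was 0.91 over the 9 Ebf1 members and 0.83 over the 5 Pax5 members. These transcripts come from 2 genes and share bases, so they are not independent measurements.

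**Figure D2:**
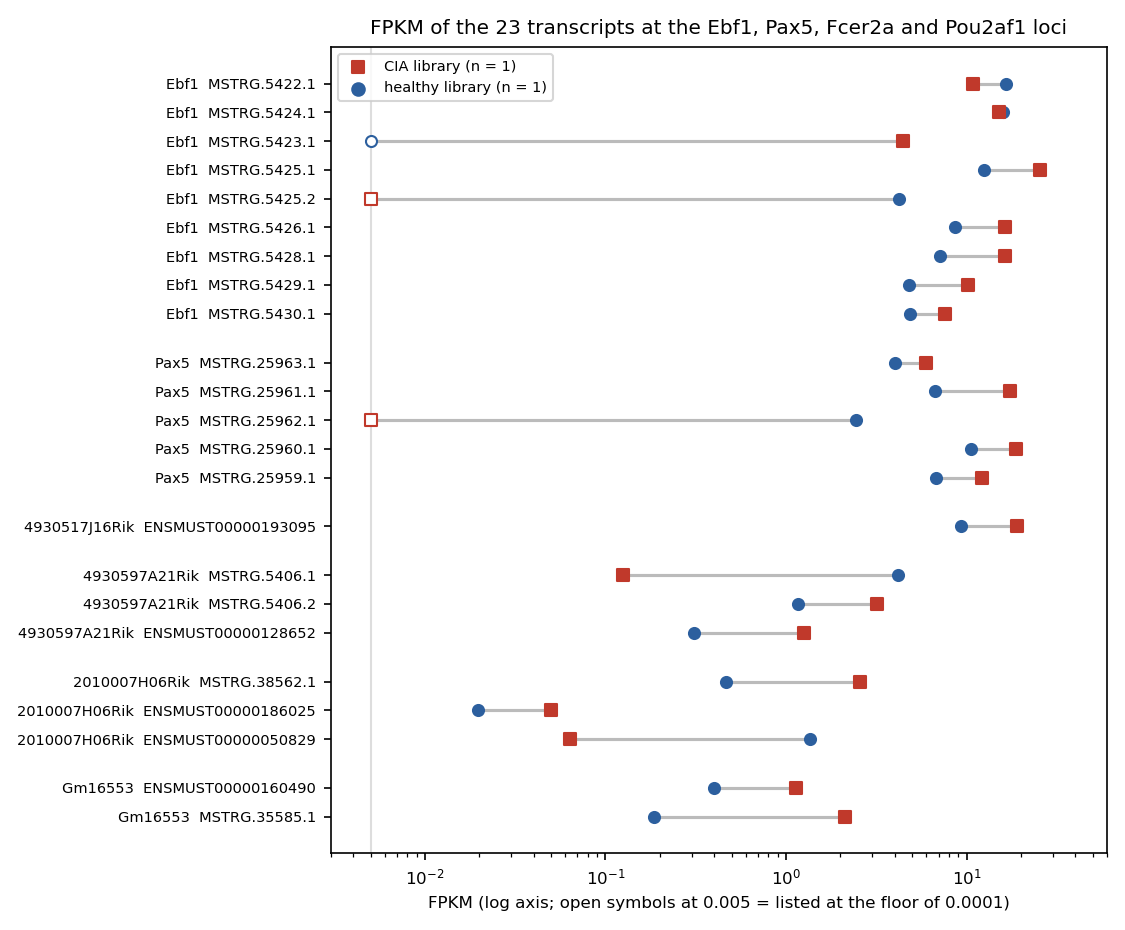
FPKM on a log axis of each of the 23 member transcripts, named by gene and transcript, in the CIA library (red squares) and the healthy library (blue circles), 1 library each; open symbols, drawn at 0.005, are values listed at the floor of 0.0001. Red lies to the right of blue for most Ebf1 and Pax5 members, while 3 of the 9 Ebf1 members and 1 member each of Pax5, 4930597A21Rik and 2010007H06Rik go the other way.

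4930597A21Rik, a lincRNA gene on the plus strand (chr11:44586317-44591229), ends 26.1 kb before Ebf1. Its annotated form has 4 exons and 698 bases, and its start is shown with exon 1 in capitals and exon 2 in lower case.
4930597A21Rik, bases 1 to 134: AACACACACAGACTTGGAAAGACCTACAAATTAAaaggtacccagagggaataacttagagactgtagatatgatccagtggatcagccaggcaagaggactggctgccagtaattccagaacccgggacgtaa
This form stood at 1.26 FPKM in CIA and 0.309 FPKM in healthy spleen, a log2 ratio of 1.73. The assembled isoform MSTRG.5406.2, which shares a splice junction with it and has 2095 bases, stood at 3.19 against 1.17 FPKM, with a log2 ratio of 1.37. A second assembled isoform, MSTRG.5406.1, has 2 exons and 348 bases, and ends 11.4 kb before Ebf1. It went the opposite way, at 0.126 against 4.18 FPKM, with a log2 ratio of -4.24.

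The direction of the 4930597A21Rik locus therefore depended on how its isoforms were added. The FPKM sum was 4.58 in the CIA library and 5.66 in the healthy library, with a log2 ratio of -0.30. Weighting each isoform by its length gave 7.61 against 4.12 FPKM kb, a log2 ratio of 0.88, since the isoform that was higher in the healthy library is the shortest. The annotated form alone gave 1.73. No direction can be given for this locus from the FPKM sum alone.

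MSTRG.5406.2 starts 11.1 kb upstream of the annotated start of 4930597A21Rik. The RefSeq promoter window of the annotated start (250 bases before to 50 after, chr11:44586067-44586366, plus strand, GRCm38.p6) is shown because the assembled isoforms do not begin there, with the E-box CAGGTG in capitals.
4930597A21Rik promoter: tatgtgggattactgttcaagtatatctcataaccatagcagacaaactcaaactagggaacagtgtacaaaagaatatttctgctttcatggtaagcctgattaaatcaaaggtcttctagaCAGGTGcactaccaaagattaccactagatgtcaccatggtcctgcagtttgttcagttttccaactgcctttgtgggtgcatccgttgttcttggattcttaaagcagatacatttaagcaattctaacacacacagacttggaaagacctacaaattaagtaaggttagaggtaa
Both strands were searched for CCCNNGGG (EBF), CAGGTG (E2A), ATGCAAAT (octamer), GAGGAAGT (PU.1) and TGTGGTT (RUNX). Of these letters only CAGGTG, at bases 124 to 129, occurred in this window, and 20.2% of the 32851 RefSeq promoter windows hold it. Of the 2 Ebf1 windows 1 held TGTGGTT, found in 5.27% of all windows, and the Pax5 window held none of the 5. CCCNNGGG occurred in 13.7% of all windows, ATGCAAAT in 1.74% and GAGGAAGT in 3.20%. A match describes these letters only. The windows of Gm16553 held none of the 5. RefSeq windows were matched for 4 of the 6 member genes, all but 4930517J16Rik and 2010007H06Rik. The neighbouring genes Fcer2a and Pou2af1 were searched as well. The Fcer2a window at chr8:3690812-3691111 held 2 matches, both to CAGGTG. No other Fcer2a window and no Pou2af1 window held a match.

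2010007H06Rik is annotated on the plus strand of chromosome 9 (51278513 to 51284210), 38.4 kb from Pou2af1. Its first exon overlaps 57 exon bases of the minus-strand gene Colca2. Its annotated short form is contained whole, all 626 bases, in the long form of 4934 bases at positions 1019 to 1644, so reads inside it fit both. The shared stretch begins as follows.
2010007H06Rik, short form, bases 1 to 120: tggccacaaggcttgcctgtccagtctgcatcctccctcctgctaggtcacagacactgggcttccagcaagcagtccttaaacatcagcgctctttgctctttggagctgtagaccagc
The short form stood at 0.0637 FPKM in CIA and 1.35 FPKM in healthy spleen, a log2 ratio of -3.15. The long form was low in both, at 0.0497 and 0.0198 FPKM, and was the 1 member of 23 that did not reach 0.5 FPKM. The assembled isoform MSTRG.38562.1 has 3 exons and 6221 bases, starts 3.13 kb upstream and ends 0.662 kb downstream of the annotated gene. It stood at 2.56 against 0.465 FPKM, with a log2 ratio of 2.24. The upstream part of its span lies within the span of Colca2, and exon bases that MSTRG.38562.1 shares with Colca2 were not counted. Reads of Colca2 could be counted for MSTRG.38562.1 in any shared bases, since no strand setting is stated.

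The isoforms of 2010007H06Rik thus moved in opposite directions over overlapping bases. Summed, the locus stood at 2.68 against 1.83 FPKM, with a log2 ratio of 0.52, while the annotated forms alone gave -2.78. Weighted by length, it stood at 16.2 against 3.83 FPKM kb, a log2 ratio of 2.08. The authors' p-values and q-values come from a test that is not stated. With 1 library per group they cannot measure the spread between mice. In the authors' deposited table MSTRG.38562.1 had a p of 0.000767 and a q of 0.0264. It was the only member with a q below 0.05 in the authors' deposited table, and both annotated forms had a p of 1 there.

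Gm16553 lies on the plus strand of chromosome 8 (3709804 to 3739044), 15.6 kb from Fcer2a, and GENCODE types it as antisense. It overlaps Clec4g, a C-type lectin gene, with which it shares 146 exon bases on the opposite strand. The span of Gm16553 also overlaps Gm23886, for which shared exon bases were not counted. Exon 1 of Gm16553 is in capitals below, and the 92 lower-case bases from position 78 to 169 match Clec4g on its opposite strand at 100% identity.
Gm16553, bases 1 to 177: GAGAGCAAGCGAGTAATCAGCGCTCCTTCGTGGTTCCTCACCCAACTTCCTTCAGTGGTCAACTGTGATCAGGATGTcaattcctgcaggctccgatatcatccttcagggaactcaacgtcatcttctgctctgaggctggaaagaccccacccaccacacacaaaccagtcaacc
The annotated 3-exon form stood at 1.13 FPKM in CIA and 0.397 FPKM in healthy spleen, a log2 ratio of 1.31. Reads of Clec4g could be counted for it in the shared bases, since no strand setting is stated. MSTRG.35585.1, a single-exon transcript of 2530 bases in an intron of Gm16553 (chr8:3721368-3723897), stood at 2.13 against 0.186 FPKM, with a log2 ratio of 2.96. Its span lies outside Clec4g. The locus summed to 3.26 against 0.583 FPKM, with a log2 ratio of 2.30. Every way of adding its transcripts gave a value above 2-fold. The healthy value of each transcript was below 0.5 FPKM, where the unknown depth limits a ratio most. With a pseudocount of 1 FPKM the log2 ratio of the sum was 1.43. Inside the neighbouring gene Fcer2a itself, the 1 intronic transcript stood at 6.70 against 3.13 FPKM, with a log2 ratio of 1.07.

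**Figure D3:**
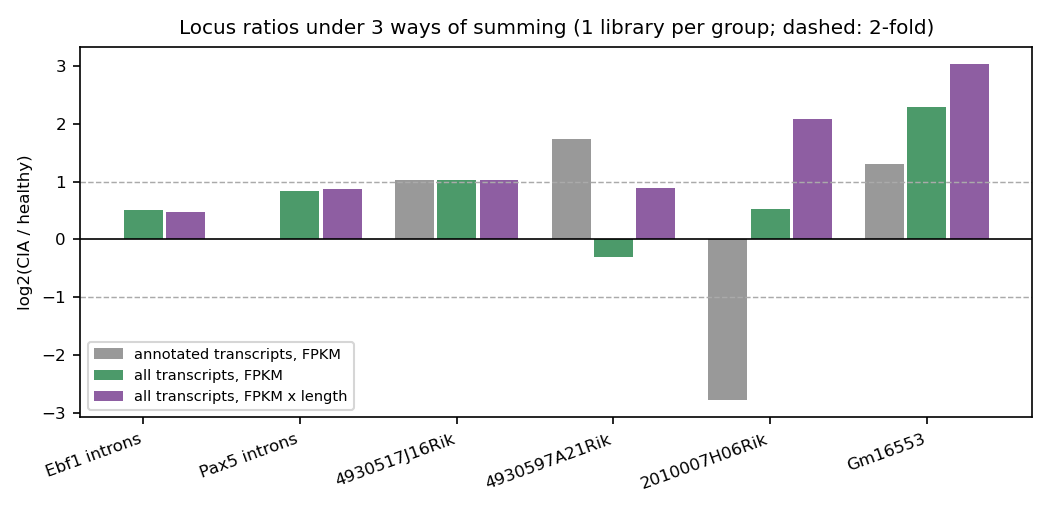
Log2 ratio of CIA to healthy for each of the 6 loci from annotated transcripts alone (grey), from the FPKM sum of all members (green) and from the sum weighted by transcript length, with no pseudocount (purple), 1 library per group; dashed lines mark 2-fold. 4930517J16Rik has 1 transcript, so its 3 bars are 1 measurement. The FPKM and length-weighted sums differ little for the Ebf1 and Pax5 introns, whereas they differ in sign for 4930597A21Rik (-0.30 and 0.88). For 2010007H06Rik both of these sums are above 0, and only the annotated transcripts alone are below 0 (-2.78).

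Over the 6 lncRNA and host loci, 4930517J16Rik and Gm16553 were 2-fold higher by the FPKM sum, and none was 2-fold lower. Among the sums of 4339 host genes, which cover intronic transcripts only, 10.8% were 2-fold higher and 9.4% lower. The call of 4930517J16Rik was lost with a pseudocount of 1 FPKM (0.96) and after subtracting the median of the annotated (0.73) or intronic (0.78) transcripts. Of the 4 annotated members that reached 0.5 FPKM, 3 were 2-fold higher and 1 lower, against 15.7% and 6.13% of all annotated transcripts. Of the 18 assembled members, 8 were 2-fold higher and 3 lower, against 17.2% and 11.1% of all assembled transcripts. Of the 23 members, 7 were marked as significant in the authors' deposited table, all with a higher CIA value, and 1 had a p below 0.05. Over all 32012 transcripts of the authors' deposited table, 3.93% were marked, 3.31% with a higher CIA value, and 1.16% had a p below 0.05. The mark does not follow that p threshold, since the authors' deposited table marks MSTRG.5425.1 at p = 0.178.

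Other B lineage genes were read through the same measure, the FPKM summed over their intronic assembled transcripts. The libraries hold RNA of all spleen cells, and which cells the RNA of each listed gene came from was not tested. The list was chosen with earlier results of these data known, so its counts are not independent support. Of 47 listed genes 20 had intronic assembled transcripts, and all 20 had a log2 ratio above 0, as did 63.3% of all 4339 host genes. Of these, 4 were 2-fold higher and none lower, against 10.8% higher and 9.4% lower of all host genes. The list median was 0.70, beside 0.20 for all host genes, and it was also 0.70 without Ebf1 and Pax5. The highest were Ikzf3, which encodes the lymphoid zinc finger factor Aiolos (15.1 against 5.46 FPKM, log2 ratio 1.45), and Bach2, a repressor that restrains plasma cell differentiation (154.7 against 66.4 FPKM, 1.22). Fcer2a followed at 1.07, then Il7r, which encodes the interleukin-7 receptor of B cell precursors and of T cells (12.6 against 6.21 FPKM, just past 2-fold). Foxo1, which controls early B cell gene expression, stood at 11.1 against 5.95 FPKM (0.88).

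At the other end stood Tcf3, which encodes the E2A proteins that act upstream of Ebf1, at 5.87 against 5.47 FPKM (0.10). The related E protein gene Tcf4 stood at 13.5 against 12.2 FPKM (0.15) and Blnk, the B cell receptor adaptor gene, at 37.6 against 32.9 FPKM (0.19). Pou2f2, which encodes the octamer factor OCT2, stood at 17.9 against 13.6 FPKM (0.39). Prdm1, the plasma cell factor gene, stood at 2.56 against 1.84 FPKM (0.46) from 1 transcript of 0.32 kb. Bcl11a, a factor gene of early lymphoid cells, stood at 20.9 against 13.7 FPKM (0.61), and Foxp1 at 117.3 against 65.3 FPKM (0.84). Of the 11 transcription factor genes with intronic transcripts, 2 were 2-fold higher and none lower, against 10.8% and 9.4% of all host genes. The median of the 11 was 0.61. Ebf1 was sixth lowest of the 20 by ratio and Pax5 eighth highest, so the 2 factors sat within the range of the list.

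**Figure D4:**
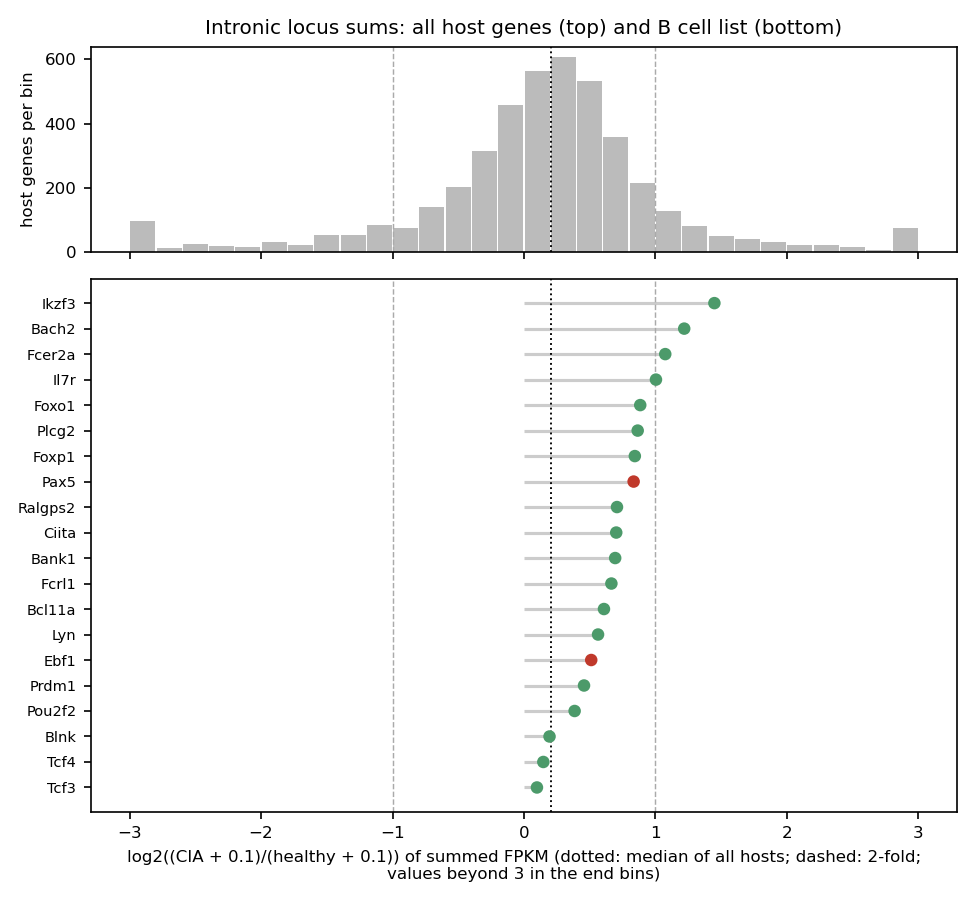
Log2 ratio of CIA to healthy of the FPKM summed over intronic transcripts, as a histogram over 4339 host genes in bins of 0.2 (top, number of genes per bin) and for the 20 B cell genes that had such transcripts (bottom; Ebf1 and Pax5 in red), 1 library per group. The dotted line is the median of all host genes, 0.20, and the dashed lines are 2-fold; all 20 B cell genes lie above 0, and 17 lie above the median of all hosts.

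Other spleen cells were read through the introns of their own genes, from lists also chosen with earlier results of these data known. Of 20 T cell genes 8 had intronic transcripts, and these summed to 187.9 FPKM in CIA and 78.6 FPKM in healthy spleen. Of the 8, 5 were 2-fold higher and none lower, against 10.8% and 9.4% of all 4339 host genes. The T cell median was 1.26, with a range from 0.64 for Satb1 to 1.51 for Lef1. The 4 erythroid genes of 16 with such transcripts, Gata1, Sptb, Epb41 and Ank1, had values between -0.42 and -0.19, with sums of 109.5 against 129.6 FPKM. Tlr4, the only one of 18 myeloid genes with such transcripts, stood at 3.44 against 6.03 FPKM (-0.79). Defining markers such as Cd79a, Cd79b and Ms4a1 of B cells and Cd3e, Cd4 and Cd8a of T cells had no intronic assembled transcript in the table, and mRNA levels were not analysed here. The part of cell composition in the Ebf1 and Pax5 values was not tested.

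By median log2 ratio over their transcripts, the host genes most like Ebf1 among the 213 with at least 10 intronic transcripts were Gm28694, Cald1, Foxn3, Slc41a2 and Gm26883, with medians between 0.90 for Gm26883 and 0.92 for Slc41a2. The nearest to Pax5 were Dtd1, Pex14, B3gnt2, Ptprg and Maml2, with medians between 0.79 for Maml2 and 0.82 for Dtd1. This likeness rests on 1 ratio between 2 libraries. Ebf1 and Pax5, with 9 and 5 intronic transcripts, would not meet the cut of 10 themselves. The median for Ebf1, 0.91, is above the log2 ratio of its sum, 0.51, so likeness by sum could differ.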

How the data were processed

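RNA of spleen cells was measured in 1 CIA and 1 healthy library. The submitters' processing notes name StringTie; the aligner, the strand setting and the read depth are not stated. Per the file headers, the authors gave FPKM per transcript, with 0.0001 as the lowest stand-in value, which was taken as 0 in sums. The ratio (fold) and log2 columns deposited by the authors equalled CIA over healthy FPKM within a relative tolerance of 0.0001. Per the file headers the authors also gave p-values and q-values, by a test that is not stated. In the CIA column 2 damaged cells, neither of a member, were restored from the ratio. All 15172 annotated transcripts had GENCODE M21 coordinates (GRCm38).

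Log2 ratios used a pseudocount of 0.1 FPKM, which understates ratios of low transcripts, and counts a filter of 0.5 FPKM in either library. Introns follow the principal GENCODE transcript of each host. The rule for named genes took all lncRNA members, the Ebf1 and Pax5 members most abundant or of extreme ratio, B cell hosts of the 5 highest and 5 lowest ratios, and all listed factors. Outside it, the other Ebf1 and Pax5 members, MSTRG.5431.1, Inpp4b, the T cell, erythroid and myeloid genes and Ralgps2, Bank1, Lyn, Ciita, Plcg2 and Fcrl1 were named after their values were seen. The members and lists were chosen with earlier results of these data known. The ratio and size rule were checked on simulated data without noise. The outcome there was fixed in advance, so this checks the code only and not the rule on these libraries. Copies were sought with blastn 2.17.0. Python 3.11.15, numpy 2.4.6, pandas 2.3.3 and matplotlib 3.10.9 were used. Alternatives were other pseudocounts, filters, centring, fold rules and ways of summing.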

Additional observations from a re-analysis of the deposited data

How the results depend on the processing

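No paired analysis was possible because there was only 1 library in each group. Of 78 alternative values, 64 kept their sign and moved by less than a factor of 1.5 (of the unlogged ratio or of the count). Among them were all those of the Ebf1 and Pax5 sums and medians and of the B cell list median. Some of these could not move. The filter settings kept the same Ebf1, Pax5 and B cell list entries, so those values repeated the main ones. Centring subtracts a fixed 0.30 or 0.25 from each log2 ratio, less than a factor of 1.5. The Ebf1 sum, 0.51 and 0.22 after centring on the annotated median, therefore counted as unmoved. 4930597A21Rik (log2 ratio -0.30) had 1.73 from the annotated form only, 0.88 weighted by length, and -1.63 without its most abundant transcript. 2010007H06Rik (0.52) had -2.78 from annotated forms only, which is also its value without its most abundant transcript, and 2.08 weighted by length. Gm16553 (2.30) had 1.43 with a pseudocount of 1 FPKM, 1.31 from the annotated form only or without its most abundant transcript, and 3.04 weighted by length. The 8 assembled members 2-fold higher became 5 with a pseudocount of 1 FPKM or after centring on the annotated median, and 3 under a 4-fold rule. The 3 that were lower became 1 when transcripts at the floor in one library were left out, fewer by construction. 4930517J16Rik has 1 transcript, so it could not be left out. It stood under 2-fold at 0.96 with a pseudocount of 1 FPKM, and at 0.73 and 0.78 after centring on the annotated or intronic median. Length weighting of lncRNA loci and of the B cell list, centring on intronic transcripts, leaving out Ebf1 and Pax5 and leaving out floor transcripts were chosen after seeing the data. Depth is unknown, which limits values below 0.5 FPKM most.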

Other observations

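Intronic RNA of further B cell genes was higher in the CIA library within 2-fold. Ralgps2, a guanine nucleotide exchange factor gene, stood at 114.3 against 69.9 FPKM, and Bank1, the B cell scaffold gene, at 55.4 against 34.2 FPKM. Lyn, a kinase gene of B cell receptor signalling, stood at 46.9 against 31.7 FPKM, and Ciita, the activator of MHC class II genes, at 31.1 against 19.1 FPKM. Plcg2, a phospholipase gene of the same signalling, stood at 16.4 against 8.98 FPKM, and Fcrl1, an Fc receptor-like gene, at 5.06 against 3.15 FPKM. These 6 genes had log2 ratios between 0.56 for Lyn and 0.87 for Plcg2, above the median of 0.20 of all host genes.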
